A study of Macaca mulatta with 6 samples.

Results

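The genes described here encode the proteasome: its subunits, its activators and inhibitor, and the factors that assemble it. They were chosen by name alone, as every row of the count table whose symbol begins with PSMA to PSMG and a digit, or is POMP. Of 49 such genes listed by role, 48 had a row, among 32386 rows in all, and PSMB7 was not analysed here. No measured value entered the choice of genes, but the theme was proposed with results of the same comparison known, so the fold changes and calls below describe these genes and support no wider statement. By their labels, the libraries came from 6 granulocyte-macrophage colonies (CFU-GM) of rhesus macaque marrow, each the progeny of a CD34+ stem or progenitor cell after 14 days in semi-solid culture. The marrow was taken 15 months after transplantation of autologous CD34+ cells treated with CRISPR/Cas9, and colonies of both groups arose from that treated graft. The genotype labels give 3 colonies as wild type (WT) and 3 as TET2+/-, named uniallelic (UA), with a loss-of-function mutation predicted on 1 TET2 allele. The number of animals, the mutations and how the colonies were shared among animals are not given in the labels. P-values thus rest only on the spread from library to library, which may be technical. Whether the 3 UA libraries are 3 separate colonies, as labelled, or technical repeats of 1 could not be settled.

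The 26S proteasome degrades proteins that carry ubiquitin chains. Its barrel-shaped 20S core has outer rings of alpha subunits and inner rings of beta subunits, of which PSMB5, PSMB6 and PSMB7 cut peptide bonds. A 19S regulatory particle caps the core: its base holds the ATPases that unfold the substrate, and its lid removes the ubiquitin. Cells exposed to interferon gamma, and many hematopoietic cells without it, replace the catalytic subunits with PSMB8, PSMB9 and PSMB10 to form the immunoproteasome, which supplies peptides for MHC class I. PSME1 and PSME2 form PA28, an activator that opens the core without ATP.

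Total counts ranged from 6334264 to 25485143 per library. TET2 had 79.2 to 109 CPM in WT (counts scaled by library total and by TMM, a composition factor) and 224 to 237 CPM in UA. The edited allele's reads were not examined, so this does not check the labels. Counts of the libraries of each group differed by more than sampling noise, with a chi-square per degree of freedom of 4.21 to 5.21 between UA pairs, 12.2 between WT replicates 2 and 3, and 81.8 and 85.1 between WT replicate 1 and the others. That chi-square takes reads as independent, covers counting error only and grows with depth, and WT replicate 1 is the deepest library. WT replicate 1 was the farthest from the others of its group by this measure, so main results are given with and without it. Leaving out the farthest library also shrinks the spread within WT, so smaller p-values without it are not stronger evidence. All 10 monocyte and macrophage markers and 8 of 10 neutrophil granule markers had counts in all 6 libraries. Marker levels differed between the groups, and every list held genes called higher and genes called lower in UA. Of all genes tested, 34.6% were called higher and 31.4% lower. Summed levels in WT and UA were 1328 to 1487 and 24337 to 25182 CPM for neutrophil granules (7 of 10 higher in UA, 2 lower). Within that sum, MPO had means of 810 CPM in WT and 16694 CPM in UA. MMP9 fell from 128 to 15.4 CPM and LCN2 from 7.82 to 0.674 CPM, and CAMP was not called (39.9 and 37.4 CPM). Sums were 1751 to 2157 and 8337 to 8487 for monocytes and macrophages (7 of 10 higher, 1 lower). There LYZ rose from a mean of 464 CPM in WT to 7578 CPM in UA, while CD14 fell from 1146 to 21.7 CPM. The sums were 142 to 145 and 1232 to 1260 for stroma and endothelium (9 of 10 higher, 1 lower), and 523 to 584 and 867 to 885 for megakaryocytes (5 of 9 higher, 2 lower). DCN made up most of the stroma and endothelium sum in WT, at a mean of 113 CPM, and fell to 21.5 CPM in UA. COL1A2 rose there from 0.941 to 558 CPM. TUBB1 made up most of the megakaryocyte sum in WT, at 440 CPM, and fell to 203 CPM, while PPBP rose from 0.614 to 257 CPM. For eosinophils, mast cells and basophils the sums were 208 to 235 and 1558 to 1662 (6 of 8 higher, 1 lower). Sums were 445 to 485 and 658 to 702 for dendritic cells (2 of 7 higher, 4 lower). In that list FLT3 rose from a mean of 53.7 CPM in WT to 266 CPM in UA, and IRF8 from 76.6 to 335 CPM. The 4 lower genes were CD207 (82.3 to 0.054 CPM), CD1B (84.6 to 2.77), BATF3 (82.9 to 3.62) and CLEC10A (9.26 to 2.64). Erythroid markers summed to 309 to 342 and 578 to 629 (3 of 5 higher, 2 lower). Among them, TFRC had means of 92.3 CPM in WT and 567 CPM in UA, and RHAG 214 and 12.8 CPM. Lymphoid markers summed to 244 to 285 and 203 to 225 (4 of 7 higher, 3 lower). IL5RA, SPARCL1 and CD3E had 0 counts in all WT libraries. The part of these markers in the results below was not tested. In such bulk colonies, fewer cells of a type and less RNA per cell cannot be told apart.

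Most proteasome transcripts were lower in the UA colonies, in the core, the base, the lid and the assembly factors. Together the 48 genes took 2.34%, 1.86% and 1.82% of all counts in WT replicates 1 to 3. In UA replicates 1 to 3 they took 0.697%, 0.681% and 0.689%. Of 46 genes that passed the low-count filter, 42 were called lower in UA and 1 higher (edgeR adjusted p under 0.05 over 13768 genes tested), where 31.4% of all genes tested were called lower and 34.6% higher (66.0% in either direction). The median log2 fold change was -1.77 over the 46 genes and 0.12 over all genes tested. The UA libraries lay wholly below the WT libraries for 42 of the 46, and above them for PSME4 and PSMF1, where 34.1% of all genes tested lay wholly below and 39.1% wholly above. A fall of more than 1 on the log2 scale was called for 37 of the 46, and for 21.4% of all genes tested. PSMA8, a testis-type alpha subunit, and PSMB11, the catalytic subunit of thymic epithelium, failed the filter with 2 and 5 counts over all 6 libraries, where the limit set by a count of 0 runs from 0.137 CPM (deepest library) to 0.442 CPM (shallowest).

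**Figure D1:**
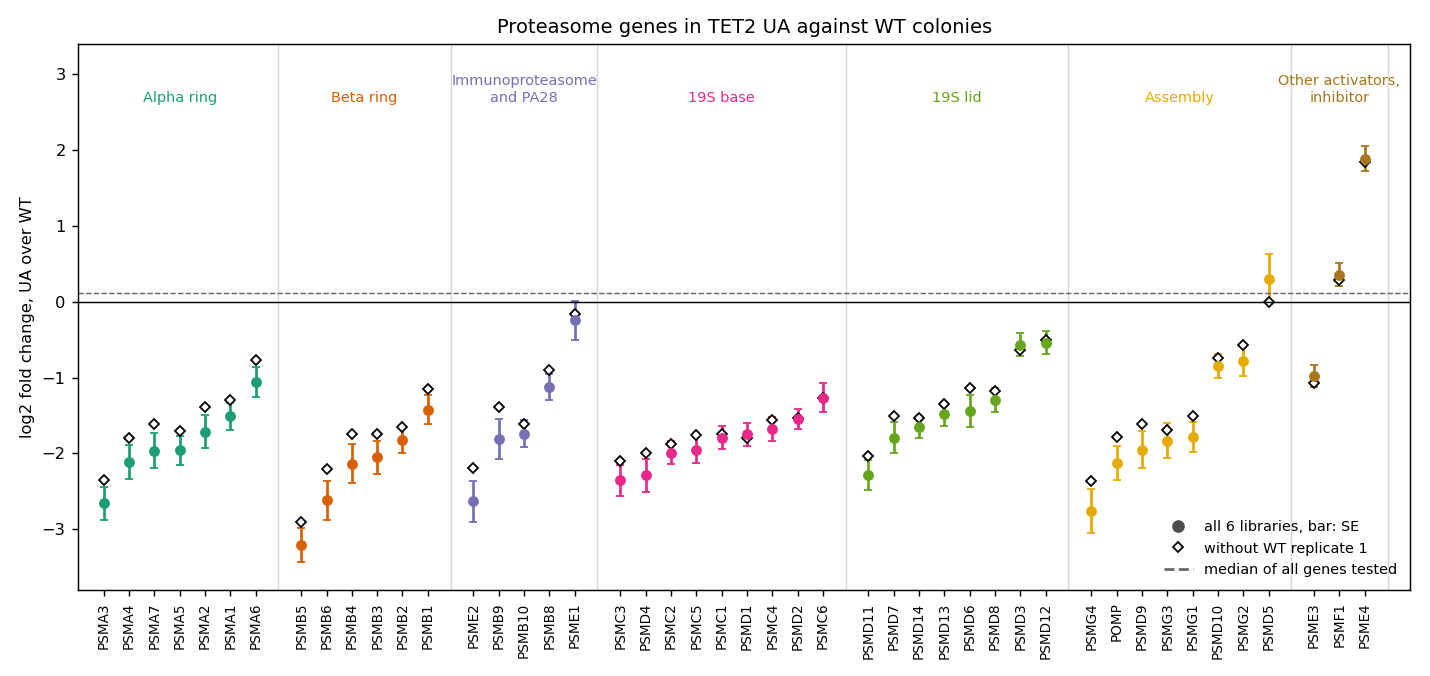
Log2 fold change of UA over WT (vertical axis) for the 46 proteasome genes tested, grouped by role; filled points use all 6 libraries, with bars for the standard error, and open diamonds leave out WT replicate 1. All points of the alpha ring, beta ring, base and lid lie below 0, and PSME4 stands highest at 1.89.

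Without WT replicate 1 the same 42 genes were called lower, against 31.9% of all genes tested, and 2 were called higher, PSME4 and PSMF1, against 37.4%. The median log2 fold change was then -1.55. With the UA libraries added together as 1 sample, which leaves the spread to the WT colonies alone, 37 of the 42 were called lower (14.9% of all genes tested) and PSME4 alone was called higher (18.6%). The 5 that lost their call in that fit were PSMD3, PSMD12, PSMD10, PSMG2 and PSME3.

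The alpha ring, which forms the gate of the core, fell throughout: all 7 genes tested were called lower, with a median log2 fold change of -1.96 and -1.61 without WT replicate 1. PSMA3 fell most, with 1227, 773 and 688 CPM in WT replicates 1 to 3 and 140.5, 149 and 136 CPM in UA replicates 1 to 3. UA over WT came to -2.66 on the log2 scale, SE 0.22 (edgeR adjusted p = 2.79e-06). PSMA6 fell least, with 807, 478 and 499 CPM in WT and 296, 274 and 286 CPM in UA replicates 1 to 3. Every UA library lay below every WT library for both genes, but the fall of PSMA6 was smaller, at -1.06 (SE 0.20, edgeR adjusted p = 0.00081). PSMA1, PSMA2, PSMA4, PSMA5 and PSMA7 lay between them, with log2 fold changes of -2.12 to -1.51.

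The constitutive beta subunits fell as well, with 6 of 6 genes called lower and a median log2 fold change of -2.09 (-1.74 without WT replicate 1). PSMB5, the chymotrypsin-like catalytic subunit, on chromosome 7 from 84372755 to 84382347 (coordinates here are the deposited table's own, with no build named in it), fell further than any other proteasome gene tested. It had 1186, 682 and 726 CPM in WT replicates 1 to 3 and 89.4, 101 and 90.6 CPM in UA replicates 1 to 3. The UA mean was 10.8% of the WT mean (log2 fold change -3.21, SE 0.22, edgeR adjusted p = 1.12e-06). PSMB6, the caspase-like subunit, on chromosome 16 from 4723628 to 4731421, had 1043, 499 and 556 CPM in WT and 117, 110.2 and 113 CPM in UA replicates 1 to 3. The log2 fold change, -2.62 (SE 0.26, edgeR adjusted p = 9.58e-06), was the second largest of the ring, and the 3 UA values were within 7 CPM of each other while WT replicate 1 stood far above the other WT values. PSMB1, a structural beta subunit, fell least of the ring, with 887, 576 and 537 CPM in WT and 250.1, 247 and 247 CPM in UA replicates 1 to 3 (log2 fold change -1.42, SE 0.19, edgeR adjusted p = 8.09e-05). PSMB2, PSMB3 and PSMB4, which also have no catalytic site, had log2 fold changes of -1.82, -2.05 and -2.13.

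Of the immunoproteasome subunits and PA28, 4 of 5 genes were called lower, with a median log2 fold change of -1.74 (-1.39 without WT replicate 1). PSMB8, which takes the place of PSMB5, lies on chromosome 4 from 33655307 to 33661474, next to PSMB9 at 33670192 to 33697456, within the MHC region. PSMB8 had 869, 574 and 588 CPM in WT replicates 1 to 3 and 315, 311 and 304 CPM in UA replicates 1 to 3. It fell by 1.12 on the log2 scale, with an SE of 0.18 (edgeR adjusted p = 0.000225), the smallest fall among the catalytic subunits measured. PSMB9, which takes the place of PSMB6, had 604, 273.5 and 332 CPM in WT and 129, 104 and 110.3 CPM in UA replicates 1 to 3. WT replicate 1 held about as much PSMB9 as the other WT libraries together, and the log2 fold change was -1.81 with it (SE 0.27, edgeR adjusted p = 0.000141) and -1.39 without it (edgeR adjusted p = 1.09e-09). PSMB10, which takes the place of PSMB7, lies on chromosome 20 from 52300894 to 52302257. It had 138, 104 and 115 CPM in WT and 38.9, 32.6 and 34.9 CPM in UA replicates 1 to 3 (log2 fold change -1.74, SE 0.18, edgeR adjusted p = 1.07e-05).

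Immune and constitutive catalytic subunits thus fell by unequal amounts, which was described by the ratio of their counts within each library. The size of such a ratio depends on the lengths of the 2 genes, and its difference between libraries on the log2 scale does not. PSMB8 to PSMB5 had ratios of 0.732, 0.842 and 0.810 in WT replicates 1 to 3. The UA colonies reached 3.52, 3.09 and 3.35 (replicates 1 to 3). The means were 0.795 ± 0.0563 and 3.32 ± 0.218 (SD, n = 3 each), a difference of 2.06 on the log2 scale that was 2.01 without WT replicate 1. PSMB9 to PSMB6 had ratios of 0.580, 0.548 and 0.598 in WT replicates 1 to 3 against 1.11, 0.942 and 0.974 for the UA colonies (replicates 1 to 3), a difference of 0.81 on the log2 scale. The groups did not overlap for either ratio, and WT replicate 1 was close to the other WT colonies in both. These ratios were given no test, and the ratio of PSMB10 to PSMB7 could not be formed.

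The PA28 genes are neighbours on chromosome 7, PSME1 from 85547718 to 85553128 and PSME2 from 85554949 to 85558309. PSME2 had 1626, 770.5 and 815 CPM in WT replicates 1 to 3 and 182, 166 and 167 CPM in UA replicates 1 to 3. It fell by 2.64 on the log2 scale (SE 0.27, edgeR adjusted p = 1.17e-05). Without WT replicate 1 the log2 fold change was -2.19. PSME1 had 16.8, 11.8 and 17.1 CPM in WT and 12.1, 15.6 and 10.8 CPM in UA replicates 1 to 3, values that overlap between the groups. PSME1 was not called (log2 fold change -0.25, SE 0.26, edgeR adjusted p = 0.415). The row of PSME1 held only 73 to 368 counts per library.

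**Figure D2:**
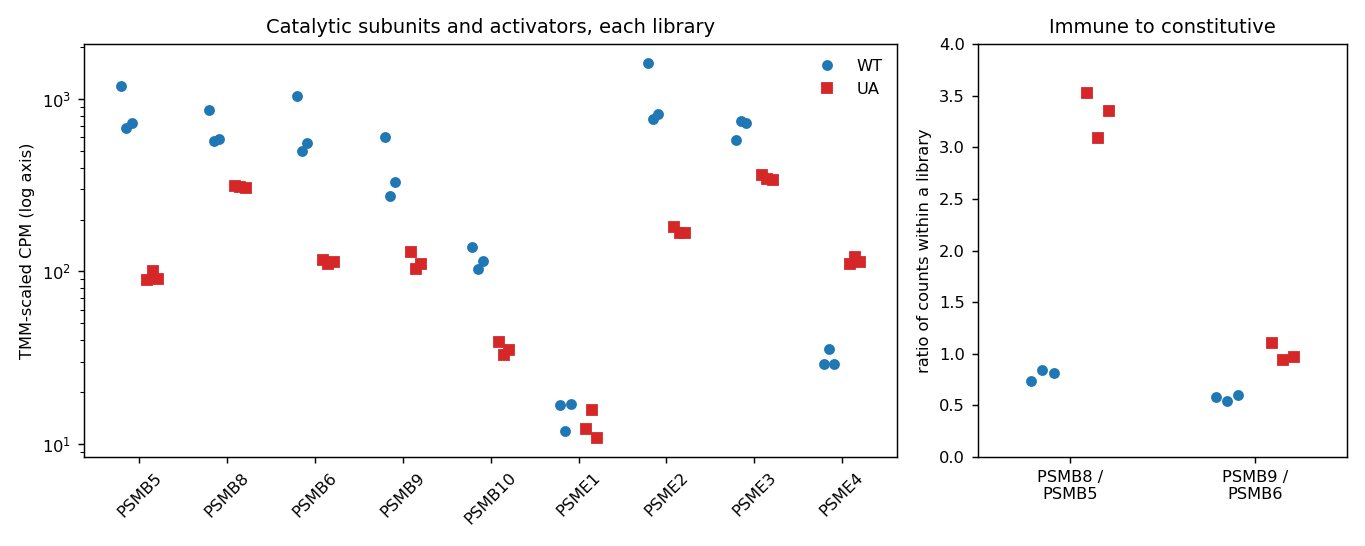
Left, TMM-scaled CPM (log axis) of catalytic subunits and activators in each of 3 WT (circles) and 3 UA (squares) libraries; right, the ratio of counts of PSMB8 to PSMB5 and of PSMB9 to PSMB6 within each library. UA values lie below WT values except for PSME1, which overlaps, and PSME4, which is higher, and the PSMB8 to PSMB5 ratio is 3.09 to 3.52 in UA against 0.732 to 0.842 in WT.

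In the base of the 19S particle all 9 genes were called lower, with a median log2 fold change of -1.79 (-1.75 without WT replicate 1). PSMC3, an ATPase, fell most, with 837, 535 and 542 CPM in WT replicates 1 to 3 and 134, 106 and 133 CPM in UA replicates 1 to 3. UA over WT came to -2.36 on the log2 scale, SE 0.20 (edgeR adjusted p = 4.08e-06). PSMC6, another ATPase, fell least, with 88.3, 88.2 and 88.8 CPM in WT and 33.5, 30.8 and 46.1 CPM in UA replicates 1 to 3. The WT values of PSMC6 were nearly equal, WT replicate 1 included, and the log2 fold change of UA over WT was -1.27 (SE 0.19; edgeR adjusted p = 0.000162). The other ATPases PSMC2, PSMC4 and PSMC5 had log2 fold changes of -1.99, -1.68 and -1.95. PSMD1 and PSMD2, the large scaffolds of the base, had log2 fold changes of -1.75 and -1.55, and PSMD4, a ubiquitin receptor, had one of -2.29. PSMC1 had 3 rows that may share reads. The row with most counts, on an unplaced scaffold, had a log2 fold change of -1.79, the row on chromosome 7 from 152415080 to 152427626 one of -1.77, and a row on chromosome 20 held 13 counts in all.

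In the lid all 8 genes were called lower, with a median log2 fold change of -1.46 (-1.27 without WT replicate 1), but the falls were uneven. PSMD11, a scaffold subunit, had 801, 535 and 495 CPM in WT replicates 1 to 3 and 129, 116 and 130.3 CPM in UA replicates 1 to 3. It fell by 2.29 on the log2 scale, with an SE of 0.20 (edgeR adjusted p = 3.87e-06). PSMD12, another scaffold subunit, had 269, 293 and 216 CPM in WT and 180.2, 174 and 179.8 CPM in UA replicates 1 to 3. The groups did not overlap, yet its log2 fold change was only -0.54 (SE 0.15, edgeR adjusted p = 0.00939), and -0.52 with the UA libraries summed (edgeR adjusted p = 0.28). PSMD3 was close to it, at -0.57 (edgeR adjusted p = 0.00704), and its call was lost with the UA libraries summed (-0.55, edgeR adjusted p = 0.252) and with library size alone (-0.41, edgeR adjusted p = 0.0528). PSMD14, the deubiquitinase of the lid, had a log2 fold change of -1.65. The remaining lid genes, PSMD6, PSMD7, PSMD8 and PSMD13, had values of -1.79 to -1.30.

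**Figure D3:**
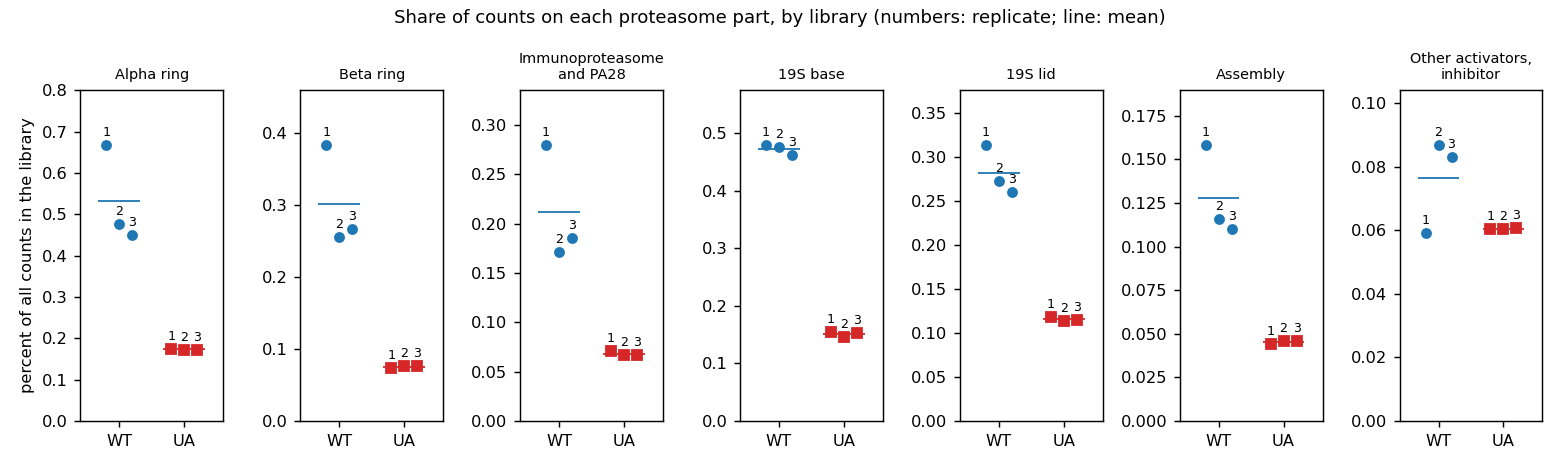
Percent of all counts in a library (vertical axes, each starting at 0) that fell on the genes of each role, in WT (circles) and UA (squares) replicates 1 to 3, with the group mean as a line. WT replicate 1 stands above the other WT libraries for the core rings (0.668% against 0.477% and 0.451% for the alpha ring) and lies close to them for the base (0.480% against 0.476% and 0.462%).

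Of the factors that assemble the proteasome, 7 of 8 were called lower, with a median log2 fold change of -1.81 (-1.56 without WT replicate 1). POMP, which guides the beta ring and is destroyed by the finished core, lies on chromosome 17 from 8187142 to 8207886. It had 671, 407 and 353 CPM in WT replicates 1 to 3 and 108, 117 and 102 CPM in UA replicates 1 to 3. The lowest WT library held about 3 times the highest UA library, and the log2 fold change of UA over WT was -2.13 (SE 0.23; edgeR adjusted p = 1.74e-05).

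PSMG1 to PSMG4 pair up, PSMG1 with PSMG2 and PSMG3 with PSMG4, as chaperones of the alpha ring. PSMG1 had 454, 283 and 280.0 CPM in WT replicates 1 to 3 and 97.3, 98.3 and 99.5 CPM in UA replicates 1 to 3 (log2 fold change -1.78, SE 0.20, edgeR adjusted p = 2.3e-05). PSMG2 had 149.7, 113 and 91.7 CPM in WT and 59.1, 75.2 and 72.9 CPM in UA replicates 1 to 3. Its log2 fold change was -0.78 (edgeR adjusted p = 0.00587), and -0.81 with the UA libraries summed (edgeR adjusted p = 0.109). The PSMG2 row spans only 795 bp, on chromosome 2 from 165986710 to 165987504, while the RefSeq gene table (assembly T2T-MMU8v2.0) places PSMG2 on another chromosome, so its value is uncertain. PSMG3 had 71.6, 47.3 and 64.5 CPM in WT and 18.8, 13.5 and 19.1 CPM in UA replicates 1 to 3 (log2 fold change -1.83, SE 0.23, edgeR adjusted p = 4.44e-05). PSMG4 fell most of the 4, with 101.5, 49.0 and 56.4 CPM in WT and 9.73, 11.9 and 8.84 CPM in UA replicates 1 to 3. UA over WT came to -2.76 on the log2 scale, SE 0.29 (edgeR adjusted p = 1.61e-05).

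PSMD5, PSMD9 and PSMD10 are chaperones of the base and leave before the particle is complete. PSMD9 and PSMD10 had log2 fold changes of -1.95 and -0.85 (edgeR adjusted p = 4.2e-05 and 0.000868), and the call of PSMD10 was lost with the UA libraries summed (-0.83, edgeR adjusted p = 0.0937). PSMD5 was not called, with 6.71, 13.5 and 16.5 CPM in WT replicates 1 to 3 and 12.9, 14.3 and 17.7 CPM in UA replicates 1 to 3 (log2 fold change 0.30, SE 0.33, edgeR adjusted p = 0.444). The groups overlapped and WT replicate 1 was the low library, and without it the log2 fold change was -0.0065 (edgeR adjusted p = 0.982).

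The other activators and the inhibitor did not move together, with 1 of 3 called higher and 1 lower. PSME4 encodes PA200, an activator linked to histone breakdown and DNA repair, on chromosome 13 from 54754315 to 54860045. It had 28.8, 35.5 and 29.0 CPM in WT replicates 1 to 3 and 110.5, 121 and 113 CPM in UA replicates 1 to 3. It was the only proteasome gene called higher in the 6-library fit, by 1.89 on the log2 scale (SE 0.17, edgeR adjusted p = 4.46e-06), and by 1.84 without WT replicate 1 (edgeR adjusted p = 6.23e-10). PSME3, the nuclear activator PA28 gamma, had 583, 751 and 722 CPM in WT and 361, 344 and 337 CPM in UA replicates 1 to 3. It fell by 0.98 on the log2 scale, with an SE of 0.15 (edgeR adjusted p = 0.000151). With the UA libraries summed the call was lost (-0.94, edgeR adjusted p = 0.0531). PSMF1, the inhibitor PI31, had 75.9, 91.8 and 88.6 CPM in WT and 106, 105 and 116 CPM in UA replicates 1 to 3. All UA libraries lay above all WT libraries for PSMF1, with a log2 fold change of 0.36 that was not called with all 6 libraries (SE 0.15, edgeR adjusted p = 0.0609) and was called without WT replicate 1 (0.28, edgeR adjusted p = 0.0232).

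The name pattern also matched a pair of genes that encode no subunit. PSMC3IP, a protein of meiotic recombination, had a log2 fold change of -1.9995 (edgeR adjusted p = 1.07e-05), and PSME3IP1, which binds PSME3 and appears as FAM192A in the authors' deposited table, one of -1.02 (edgeR adjusted p = 0.00161).

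Among the WT colonies, replicate 1 also stood apart in many proteasome genes, to a degree that varied within and between roles. The level in WT replicate 1 over the mean of WT replicates 2 and 3 had a median of 1.49 over the 46 genes and 0.989 over all genes tested. It was above 1.2 for 35 of the 46 and for 34.9% of all genes tested. By role, its median was 1.68 in the alpha ring (1.48 to 1.80) and 1.69 in the beta ring (1.36 to 1.98). It was 1.54 in the assembly factors (0.448 to 1.93) and 1.5 in the immunoproteasome and PA28 (1.16 to 2.05). The base had a median of 1.23 (0.889 to 1.68) and the lid one of 1.26 (0.84 to 1.66), so their ranges overlapped those of the rings. PSMD2, with 1568, 1559 and 1534 CPM in WT replicates 1 to 3, and PSMC6 were level across the WT colonies, whereas PSME2 reached 2.05 times. PSME3, PSME4 and PSMF1 were lower in WT replicate 1, at 0.791 to 0.894 times. With 1 library on one side, this difference has no test. In the UA libraries, which may be technical repeats, the same genes varied little. Their median coefficient of variation was 5.06%, against 25.8% in WT and 6.53% between WT replicates 2 and 3.

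**Figure D4:**
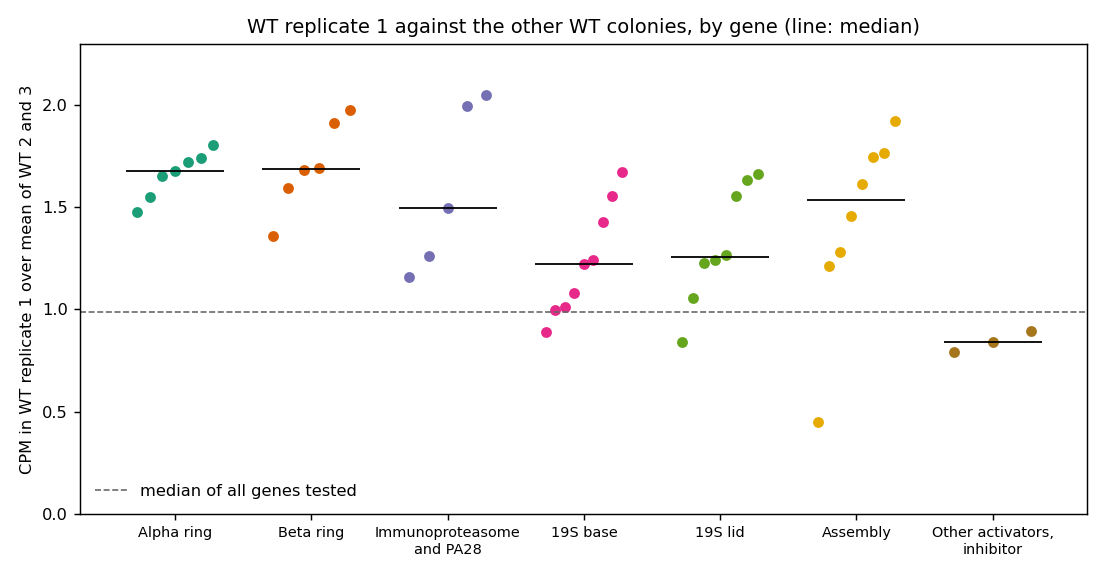
TMM-scaled CPM in WT replicate 1 over the mean of WT replicates 2 and 3 (vertical axis) for each gene tested, by role, with the median of each role as a line and the median of all genes tested dashed. All points of the core rings lie at or above 1.36, while the base runs from 0.889 to 1.68 and the lid from 0.840 to 1.66.

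With all 6 libraries, counts in the lists of other genes below stand beside 31.4% of all genes tested called lower and 34.6% higher. Without WT replicate 1 the shares were 31.9% and 37.4%. Counts with the UA libraries summed stand beside the smaller shares of that fit, given above. A list near the shares of its fit does not stand out. Of 15 proteasome-bound factors tested, 8 were called lower and 3 higher, with a median log2 fold change of -0.47. Without WT replicate 1 these were 7, 4 and -0.25. The subunits ADRM1, a ubiquitin receptor of the base, and SEM1, a small lid subunit, had log2 fold changes of -2.50 and -2.84. UCHL5, a deubiquitinase that ADRM1 recruits, had one of -1.68, and TXNL1 and PAAF1 had values of -1.38 and -1.16. Called higher were KIAA0368 (now ECPAS), UBE3C, a ubiquitin ligase at the proteasome, and RAD23B, at 1.06, 0.79 and 0.49. The calls of UBE3C and RAD23B were lost with the UA libraries summed (edgeR adjusted p = 0.0857 and 0.273).

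Of 12 genes for ubiquitin and its transfer, 7 were called lower and 1 higher, with a median log2 fold change of -0.42, and 3 were called lower with the UA libraries summed. Without WT replicate 1 the count called higher was 3, with 7 lower. UBB, a polyubiquitin gene, had 2337, 1955 and 2153 CPM in WT replicates 1 to 3 and 987, 912 and 924 CPM in UA replicates 1 to 3, a log2 fold change of -1.19. The conjugating enzymes CDC34, UBE2N, UBE2L3 and UBE2D3 had log2 fold changes of -2.28, -1.35, -0.83 and -0.37, and UBA1, the main activating enzyme, had one of 0.57. The calls of UBE2L3, UBE2D3 and UBA1 were lost with the UA libraries summed (edgeR adjusted p = 0.0924, 0.477 and 0.184). Of 9 genes around VCP, the segregase that pulls ubiquitinated proteins from complexes, 4 were called lower and 1 higher. VCP, UFD1, NSFL1C and FAF2 had log2 fold changes of -1.32, -1.76, -1.20 and -1.03, and UBXN7 one of 1.40.

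Of 9 regulators of proteasome genes, 5 were called higher and 1 lower. NFE2L1, the factor that raises proteasome genes when the proteasome is impaired, was named after its values were seen. It had 37.1, 88.7 and 79.0 CPM in WT replicates 1 to 3 and 81.3, 68.2 and 75.0 CPM in UA replicates 1 to 3, values that overlap (log2 fold change 0.14, SE 0.28, edgeR adjusted p = 0.673). Without WT replicate 1, its lowest library, the value turned to -0.15 (edgeR adjusted p = 0.262). NFE2L2, its relative in the oxidative stress response, was called lower, with 329.7, 389.7 and 346.5 CPM in WT and 86.2, 79.7 and 75.0 CPM in UA replicates 1 to 3, a log2 fold change of -2.14. BACH1, a repressor at the same kind of site, was higher by 2.90, OGT, which modifies NFE2L1, by 2.13, HCFC1 by 1.73, MAFF by 0.72 and NGLY1, which processes NFE2L1, by 0.48. The calls of MAFF and NGLY1 were lost with the UA libraries summed (edgeR adjusted p = 0.129 and 0.254).

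Of 15 genes listed as feeding peptides to MHC class I, 12 were tested, and the transporter genes TAP1 and TAP2 were not analysed here. Among the 12, 8 were called higher and 2 lower, with a median log2 fold change of 0.91. IRF1, an interferon-induced activator of PSMB8 and PSMB9, had 38.7, 54.3 and 71.7 CPM in WT replicates 1 to 3 and 386, 405 and 398 CPM in UA replicates 1 to 3, a log2 fold change of 2.86. NLRC5, the class I transactivator, was higher by 2.33, the peptidases ERAP1, ERAP2 and TPP2 by 1.57, 1.39 and 1.32, and the chaperone CALR by 0.83. B2M, the light chain of class I molecules, and LAP3, a peptidase, had log2 fold changes of -0.69 and -0.56, and B2M one of -0.36 without WT replicate 1. With the UA libraries summed, 6 of the 12 were called higher, and B2M, LAP3 and CALR had edgeR adjusted p-values of 0.21, 0.26 and 0.051. Of 11 genes of interferon gamma signalling tested, 4 were called higher and 3 lower with all 6 libraries, and 5 and 5 without WT replicate 1, close with all 6 libraries to the 34.6% and 31.4% of all genes tested. IRF8 and JAK2 were higher by 2.13 and 2.46, and IFNGR2, a receptor chain, IDO1 and SOCS1 had log2 fold changes of -3.39, -3.61 and -1.29 (SOCS1 with the UA libraries summed, edgeR adjusted p = 0.0983).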

How the data were processed

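Per the labels' protocols, cDNA of picked colonies was made with SMART-Seq V4 and libraries with Nextera XT. The submitters' processing notes name bcl2fastq and the build Mmul_8.0.1, and no aligner or counter is named in those sources. This kit marks neither strand nor molecule, so overlapping genes and PCR copies cannot be told apart. The authors deposited raw counts per gene, with no normalization. Their table of differential expression does not say which libraries it compares. The log2 fold changes in the authors' deposited table are above 0 for all 40 of the proteasome genes tested here that have one, and for 34.1% of all its genes. Their sign is opposite to UA over WT for 37 of the 40, so that table does not bear out the direction printed here, which rests on the counts and their labels. Only its gene symbols, descriptions and coordinates were used further. It names no build.

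Symbols of the 50 rows of listed genes came from the row name (7), the deposited table's symbol (23), a gene name table (17) or the deposited table's description (3). For a symbol on several rows, the row with the highest count was used. The test was edgeR's quasi-likelihood F-test (version 4.0.16, R 4.3.3, robust, TMM factors of 0.86 to 1.072, filterByExpr with a minimum count of 10), which left 13768 genes. The Benjamini-Hochberg adjustment ran over all of them. A log2 fold change is UA over WT, and its SE was taken as its absolute value divided by the root of F. Alternatives used limma 3.58.1, DESeq2 1.42.0 and other settings. The theme and the lists were chosen with earlier results of these data known, while the members themselves were taken by name. Full values were given for the immunoproteasome, its counterparts, POMP, PSMG1 to PSMG4, PSME3, PSME4, PSMF1 and the extremes of each ring, base and lid. In other lists up to 6 genes of smallest p, and called genes against the list's majority, were named. A gene that this rule would name is not reported here. Sequences, transcript lengths and GC content were not examined, so levels were not compared between genes.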

Additional observations from a re-analysis of the deposited data

How the results depend on the processing

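Under 18 alternatives to the fit, between 37 and 42 proteasome genes were called lower in UA (42 in every fit that left out 1 library) and the median log2 fold change was -1.84 to -1.55. The calls of 39 of the 46 genes kept their direction and side of the threshold under every alternative. The number called higher was 1, and 2 with library size alone, upper-quartile factors, limma-voom, DESeq2's test, a filter of at least 5 CPM in 3 libraries, and without WT replicate 1 (range 1 to 2 over the libraries left out), the second gene being PSMF1. Library size alone moved the median of the other activators and the inhibitor from 0.36 to 0.51 and the median of all genes tested from 0.12 to 0.28. PSMD5, not called, turned from 0.30 to -0.0065 without WT replicate 1 (range -0.0065 to 0.57 over the libraries left out), and the cause was not tested. Same-numbered WT and UA libraries did not deviate together (correlations of 0.024, 0.033 and 0.016 across genes, which are not independent replicates), so the numbers are not taken as pairs. With the replicate block, 42 genes were called lower and 1 higher, the same 42 as without it, and the median log2 fold change was -1.74. The difference in the log2 ratio of PSMB8 to PSMB5 was 2.01 to 2.11 and that of PSMB9 to PSMB6 0.74 to 0.85 over 8 alternatives each. Too few counts kept PSMA8 and PSMB11 out of the tests.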
